A study of Mus musculus with 12 samples.

Results

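Collagens are the main structural proteins of the extracellular matrix, and each is built from chains that wind around one another into a helix. Fibrillar collagens form the cable-like fibrils of bone, skin and tendon, basement membrane collagens form the sheets beneath epithelia and around vessels, and the remaining types decorate fibrils, form beaded filaments or hexagonal networks, or span the cell membrane. Fibroblasts and other mesenchymal cells are the classical source of the fibrillar chains, whereas macrophages are known mainly for taking up and degrading collagen. The genes described here are those whose mouse symbol is Col, a type number, a and a chain number. They numbered 42 of the 24465 gene identifiers in the deposited tables. All 42 had a row in the table of untreated libraries, which held 22896 identifiers, and 34 had a row in the table of TNF-treated libraries, which held 21437. Col9a1 and Col9a2, the other symbols of this form in the gene name table, had no row in either table. By class, 11 of the genes encode fibrillar chains, 8 encode chains of basement membranes and 23 encode other types.

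RNA came from bone marrow-derived macrophages (BMDMs), which are macrophages grown out of marrow cells in culture. Libraries fell into 4 groups of 3, and in all 4 the mice carried Lyz2cre, an allele that expresses the Cre recombinase from the Lyz2 gene, which is active in myeloid cells. The groups were Klf6fl/fl:Lyz2cre untreated, Lyz2cre untreated, Klf6fl/fl:Lyz2cre with TNF and Lyz2cre with TNF, where TNF is the inflammatory cytokine, given at 10 ng/ml for 6 h. Klf6fl/fl denotes both copies of Klf6, a zinc finger transcription factor gene, carrying the sites at which Cre cuts, and such cells are called Klf6-deleted below. Mouse age, sex and strain, and whether the replicates came from separate animals or cultures, are not stated in the labels, so the p-values below speak to variation among these libraries and no further. No group without Cre was analysed here.

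Each library held 16.9 to 23.4 M reads on genes. Klf6 itself was at 6894 to 7405 normalized counts in untreated Klf6-deleted libraries and 9984 to 10315 in untreated Lyz2cre libraries, and with TNF at 4133 to 4211 in Klf6-deleted and 7155 to 7622 in Lyz2cre libraries. A normalized count is a read count divided by the size factor of its library, as the authors deposited it. The genotypes did not overlap, but the gene-level count includes any exons outside the deleted part. The 10 fixed macrophage markers, which include Csf1r, Adgre1 and Cd68, were all detected in every group.

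The promoter sequences of 5 chains that recur in the results are shown: fibrillar chains with large genotype differences (Col1a2, Col3a1), a pair of chains transcribed away from a shared start region (Col4a1, Col4a2), and the most abundant chain per length in 3 of the 4 groups (Col18a1). Whether these sequences have a part in the genotype differences was not tested. Each window spans 250 bases before to 50 after a RefSeq gene start, on build GRCm38.p6, and is written 5′ to 3′ on the strand of the gene. Capitals mark short promoter elements found on either strand. The element TATAA is the core at which the basal transcription machinery can assemble in some promoters. The element CCAAT is known as a binding site of the factor NF-Y in many promoters. The element GGGCGG can be bound by Sp1 and related proteins, and the shorter element CACCC is described below. Matches may overlap, as in Col3a1, where 1 run of capitals holds TATAA on each strand.
Col1a2, chr6:4505368-4505667, plus strand: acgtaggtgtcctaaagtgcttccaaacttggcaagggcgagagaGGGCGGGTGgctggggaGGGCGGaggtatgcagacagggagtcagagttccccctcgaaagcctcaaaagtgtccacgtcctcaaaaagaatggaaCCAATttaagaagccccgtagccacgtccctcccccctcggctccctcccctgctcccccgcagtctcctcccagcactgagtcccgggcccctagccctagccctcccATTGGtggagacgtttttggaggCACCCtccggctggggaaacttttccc
Col3a1, chr1:45311288-45311587, plus strand: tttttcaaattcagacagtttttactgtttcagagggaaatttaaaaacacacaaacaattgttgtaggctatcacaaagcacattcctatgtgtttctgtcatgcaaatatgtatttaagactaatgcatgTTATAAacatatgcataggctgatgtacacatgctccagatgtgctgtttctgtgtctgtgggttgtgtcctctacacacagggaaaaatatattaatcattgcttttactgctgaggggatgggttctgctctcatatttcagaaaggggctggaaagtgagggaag
Col4a1, chr8:11312777-11313076, minus strand: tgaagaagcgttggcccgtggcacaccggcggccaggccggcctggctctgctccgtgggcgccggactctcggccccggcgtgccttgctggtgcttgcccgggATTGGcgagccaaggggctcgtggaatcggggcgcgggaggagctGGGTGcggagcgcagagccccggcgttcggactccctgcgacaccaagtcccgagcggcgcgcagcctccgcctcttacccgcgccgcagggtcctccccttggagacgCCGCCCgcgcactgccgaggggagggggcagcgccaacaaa
Col4a2, chr8:11312555-11312854, plus strand: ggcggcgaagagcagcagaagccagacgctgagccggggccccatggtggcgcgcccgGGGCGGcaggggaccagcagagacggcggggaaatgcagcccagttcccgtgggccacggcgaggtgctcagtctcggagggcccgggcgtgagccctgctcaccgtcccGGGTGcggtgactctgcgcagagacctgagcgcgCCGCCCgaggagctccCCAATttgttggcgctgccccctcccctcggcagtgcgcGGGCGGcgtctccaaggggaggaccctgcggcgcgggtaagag
Col18a1, chr10:77166481-77166780, minus strand: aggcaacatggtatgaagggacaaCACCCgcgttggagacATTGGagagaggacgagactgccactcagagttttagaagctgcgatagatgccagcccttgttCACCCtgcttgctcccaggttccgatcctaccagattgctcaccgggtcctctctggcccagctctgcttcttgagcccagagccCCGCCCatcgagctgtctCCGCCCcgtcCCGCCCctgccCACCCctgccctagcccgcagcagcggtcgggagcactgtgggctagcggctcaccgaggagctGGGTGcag
Col18a1, second start, chr10:77113656-77113955, minus strand: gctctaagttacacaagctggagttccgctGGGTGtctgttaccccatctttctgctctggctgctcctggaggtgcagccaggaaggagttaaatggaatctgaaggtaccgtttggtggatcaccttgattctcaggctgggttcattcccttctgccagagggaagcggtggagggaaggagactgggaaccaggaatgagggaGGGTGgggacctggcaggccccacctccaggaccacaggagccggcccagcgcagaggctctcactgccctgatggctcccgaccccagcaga

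The Col4a1 and Col4a2 windows share 78 bases, at chr8:11312777-11312854, read on opposite strands. Col3a1 stood apart within this set in letters alone, with a GC content of 37.7% and no GGGCGG or CACCC, while the other 5 windows had between 59.7% and 74.0% GC. Among the 33 collagen genes with a RefSeq entry (35 windows), GGGCGG occurred in 62.9% of windows, against 35.6% of all 32817 promoters of that length. CACCC, a core of the sites that Krüppel-like factors can bind, occurred in 74.3% of the collagen windows and 57.5% of all promoters. TATAA occurred in 17.1% of collagen windows and 24.9% of all promoters, and CCAAT in 34.3% of collagen windows and 37.4% of all promoters. The median GC content was 60.0% for collagen windows and 52.7% for all promoters, and the motif shares were not adjusted for it. A match is only a run of letters and was not measured as a bound site. Col1a1, Col2a1, Col5a2 and Col12a1 are among the chains with no entry.

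In untreated cells, collagen chains took 0.401%, 0.368% and 0.374% of the reads of the Klf6-deleted libraries, and 0.0301%, 0.0259% and 0.0290% of the reads of the Lyz2cre libraries. All Klf6-deleted libraries lay far above all Lyz2cre libraries. With TNF the shares were 0.0405%, 0.0411% and 0.0445% in Klf6-deleted libraries and 0.0345%, 0.0347% and 0.0321% in Lyz2cre libraries, so the groups still did not overlap but lay close together. Group means untreated were 0.381 ± 0.0178% in Klf6-deleted and 0.0283 ± 0.00220% in Lyz2cre libraries, and with TNF 0.0420 ± 0.00214% in Klf6-deleted and 0.0338 ± 0.00147% in Lyz2cre libraries (SD, n = 3 each, no test). The order with TNF depended on which chains were counted. Without Col1a1, Col1a2 and Col3a1 the Klf6-deleted share was 0.0286% and the Lyz2cre share 0.0324%, the opposite order. With TNF, fibrillar chains took 0.0212% in Klf6-deleted and 0.00481% in Lyz2cre libraries, and basement membrane chains 0.0134% and 0.0270%. Col18a1 alone held 4795 reads over the Klf6-deleted libraries. It held 12826 over the Lyz2cre libraries, which had 7206, 6832 and 5847 collagen reads. The nearness of the total shares thus rested largely on Col18a1. In bulk RNA, a change in the number of cells of one type and a change in RNA per cell cannot be told apart.

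The make-up of the collagen reads differed between the groups as well. Fibrillar chains took 63.8 ± 0.551% of collagen reads in untreated Klf6-deleted libraries and 38.0 ± 0.783% in untreated Lyz2cre libraries, and with TNF 50.5 ± 0.265% in Klf6-deleted and 14.2 ± 2.14% in Lyz2cre libraries (SD, n = 3 each). Basement membrane chains took 7.07 ± 0.577% in Klf6-deleted and 29.8 ± 1.16% in Lyz2cre libraries untreated, and with TNF 31.9 ± 1.49% in Klf6-deleted and 79.9 ± 3.36% in Lyz2cre libraries. The collagen reads of TNF-treated Lyz2cre cells were therefore mostly of the basement membrane class, and those of untreated Klf6-deleted cells mostly fibrillar. In TNF-treated Lyz2cre cells most of that class was 1 chain. Col18a1 held 12826 reads over the 3 libraries, in which the class held 5481, 5571 and 4805. Col4a5 held 1858 there, Col4a2 589 and Col4a1 323.

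**Figure D1:**
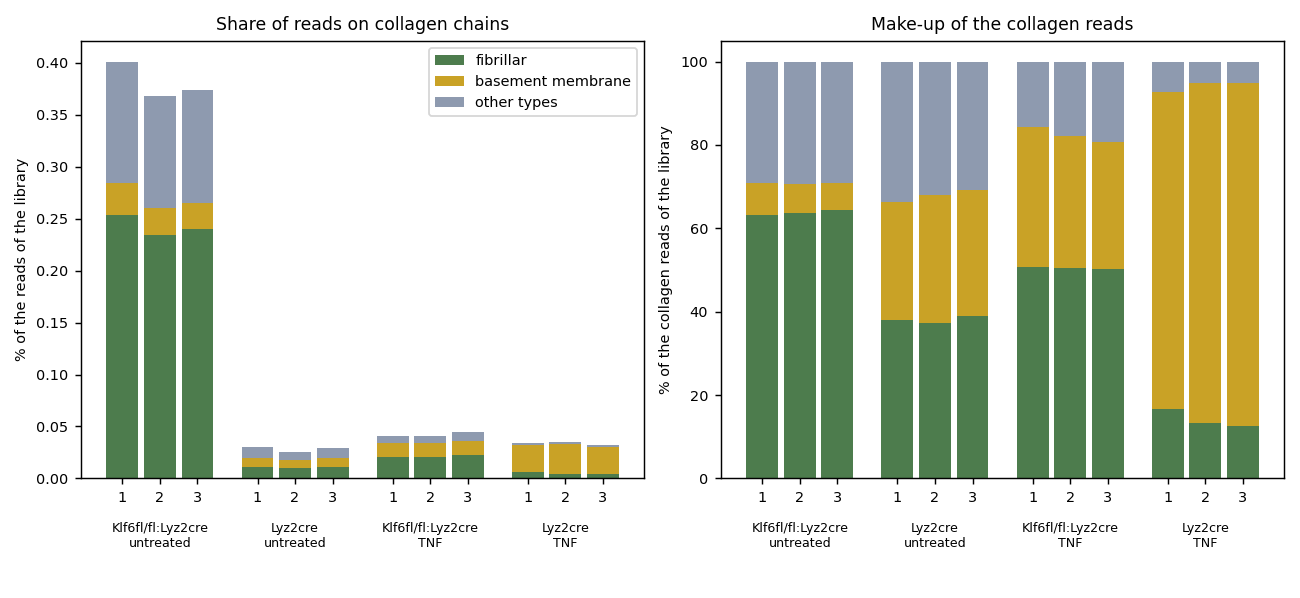
Left, the share of each library's reads on collagen chains (y axis, % of reads), and right, the same reads split by class (y axis, % of collagen reads); each bar is 1 library, numbered by replicate. Untreated Klf6fl/fl:Lyz2cre libraries reach 0.368 to 0.401%, and the basement membrane class averages 79.9% of collagen reads in Lyz2cre libraries with TNF. Col18a1 makes up most of that class there.

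A gene was tested if at least 3 libraries of its table had at least 1 CPM (a count scaled to the total reads of its library), and was called at an adjusted p below 0.05 by limma on log2(normalized count + 1), adjusted by the Benjamini-Hochberg method over all genes tested. In untreated cells, 27 chains passed this filter, 5 of them (Col9a3, Col11a1, Col15a1, Col24a1 and Col27a1) through the Klf6-deleted libraries alone, so those 5 had to differ. Col2a1, Col5a3 and Col7a1 reached 1 CPM in all Klf6-deleted but only some Lyz2cre libraries, so for these the filter favoured that direction. Of the 27, 22 were higher in Klf6-deleted cells and 0 lower. Over all 12715 genes tested, 56.9% were called, 27.6% higher and 29.3% lower, so 48.5% of the called genes were higher, and 68.0% were when libraries were scaled to total reads instead. The median log2 fold change was 3.09 for these chains and -0.01 for all genes tested. No chain was lower at an unadjusted p below 0.05, and edgeR and DESeq2 on recovered reads also called 22 higher and 0 lower. The libraries of the genotypes did not overlap for the same number of chains, 22 of 27, against 30.1% of all genes with every Klf6-deleted library above and 32.2% with every one below.

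Without TNF, all 11 fibrillar chains were higher in Klf6-deleted cells (median log2 fold change 4.06). For Col2a1, Col5a3, Col11a1, Col24a1 and Col27a1 the filter itself favoured that direction. Col1a1, which with Col1a2 makes the type I collagen of bone and skin, had 16842, 15524 and 15952 normalized counts in Klf6-deleted libraries and 570.1, 529 and 613 in Lyz2cre libraries. The difference was 28.2-fold (log2 4.82 ± 0.05 SE, adjusted p = 4.3e-21), the largest among the chains. Col1a2 had 14742, 13881 and 13639 normalized counts in Klf6-deleted libraries and 825, 718 and 838 in Lyz2cre libraries (17.8-fold). Col3a1, the chain of type III collagen, which is found with type I in distensible tissues, had 8101, 6880 and 8469 in Klf6-deleted libraries and 367, 241 and 316 in Lyz2cre libraries (25.6-fold). For each of these genes the lowest Klf6-deleted library lay far above the highest Lyz2cre library.

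Col5a1 and Col5a2 encode type V collagen, which nucleates type I fibrils. Col5a2 had 4961, 4483 and 4438 normalized counts in Klf6-deleted libraries and 312, 253 and 268 in Lyz2cre libraries (16.7-fold), and Col5a1 had 2911, 2708 and 2527 in Klf6-deleted libraries and 166, 154 and 153 in Lyz2cre libraries (17.1-fold). Both therefore differed by a similar factor. Col5a3, the remaining type V chain, was 8.44-fold higher. The cartilage chains Col2a1 and Col11a1 were higher too. Col2a1 had 274 to 364 normalized counts in Klf6-deleted libraries and 20.6 to 51.4 in Lyz2cre libraries (9.80-fold), and Col11a1 had 55.8 to 64.8 in Klf6-deleted libraries and 0 to 5.47 in Lyz2cre libraries (18.1-fold). Col24a1 was 8.54-fold higher, with 21.7 to 22.7 normalized counts in Klf6-deleted libraries and 1.09 to 3.28 in Lyz2cre libraries. Col27a1, a fibrillar chain of cartilage, had 30.8, 31.9 and 29.2 normalized counts in Klf6-deleted libraries and 6.57, 6.05 and 13.1 in Lyz2cre libraries (3.48-fold). Col11a2 differed least, with 83.4, 89.7 and 101 normalized counts in Klf6-deleted libraries and 50.3, 72.6 and 66.7 in Lyz2cre libraries (1.45-fold, adjusted p = 0.021). Its call was lost without Klf6-deleted replicate 2 or 3 or Lyz2cre replicate 1 (adjusted p = 0.050, 0.089 and 0.096).

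Among basement membrane chains, 3 of the 5 tested in untreated cells were called, all higher in Klf6-deleted cells. Col4a1 and Col4a2, which make the widespread form of type IV collagen, were close in size of effect. Col4a1 had 2578, 2100.5 and 1996 normalized counts in Klf6-deleted libraries and 359, 282 and 272 in Lyz2cre libraries (7.30-fold, log2 2.87 ± 0.10 SE, adjusted p = 2.5e-14). Col4a2 had 1695, 1407 and 1266 in Klf6-deleted libraries and 228, 145 and 215 in Lyz2cre libraries (7.48-fold). Col15a1, whose product carries glycosaminoglycan chains and lies next to basement membranes, had 121, 81.7 and 92.6 in Klf6-deleted libraries and 12.0, 8.47 and 10.9 in Lyz2cre libraries (8.62-fold).

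Col18a1, whose cleaved tail is the angiogenesis inhibitor endostatin, did not follow. It had 1014, 917 and 970.2 normalized counts in Klf6-deleted libraries and 878, 861 and 1015 in Lyz2cre libraries, and the groups overlapped (log2 0.08 ± 0.07 SE, adjusted p = 0.33). It passed the threshold only when libraries were scaled to total reads (log2 0.21, adjusted p = 0.011), which moved the median of all genes by 0.13. Col4a5, a type IV chain of the kidney filter and other membranes, also overlapped, at 378, 372 and 252 normalized counts in Klf6-deleted libraries and 262, 345 and 293 in Lyz2cre libraries (log2 0.14 ± 0.14 SE, adjusted p = 0.40). Without Klf6-deleted replicate 3 its log2 difference was 0.33 and it was called (adjusted p = 0.013). Col4a6, the partner of Col4a5 in smooth muscle membranes, did not pass the filter in untreated cells, with 16.7, 13.0 and 10.6 normalized counts in Klf6-deleted libraries and 18.6, 15.7 and 4.38 in Lyz2cre libraries. Col4a3 and Col4a4 stayed at 20.9 normalized counts or fewer in all 6 untreated libraries.

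Of the 11 tested chains of other types, 8 were higher in untreated Klf6-deleted cells. Type VI collagen, which forms beaded filaments around cells, needs the products of Col6a1, Col6a2 and Col6a3. Col6a1 had 6652, 6269 and 6695 normalized counts in Klf6-deleted libraries and 594, 442 and 479 in Lyz2cre libraries (13.0-fold, log2 3.70 ± 0.08 SE, adjusted p = 2.6e-17). Col6a2 had 4993, 4752 and 4910.3 in Klf6-deleted libraries and 365, 306 and 307 in Lyz2cre libraries (15.0-fold), and Col6a3 had 3975, 3348 and 3330.3 in Klf6-deleted libraries and 347, 263 and 326 in Lyz2cre libraries (11.4-fold). The chains that co-assemble in type VI collagen thus rose by 11.4-fold to 15.0-fold. Col6a6, an alternative partner, was 2.37-fold higher.

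Col12a1, which sits on the surface of fibrils and links them to other matrix, had 4585, 4028 and 3894 normalized counts in Klf6-deleted libraries and 369, 308 and 347 in Lyz2cre libraries (12.2-fold). Col8a1, a short chain that forms hexagonal networks beneath endothelium, had 1306, 1223 and 1175 in Klf6-deleted libraries and 113, 89.6 and 110.5 in Lyz2cre libraries (11.8-fold). Col16a1, another fibril-associated chain, had 308, 339 and 338 in Klf6-deleted libraries and 64.6, 67.8 and 52.5 in Lyz2cre libraries (5.29-fold), and Col9a3, of cartilage type IX collagen, was 2.27-fold higher. None of these groups of libraries overlapped. Col7a1 of anchoring fibrils (log2 0.59, adjusted p = 0.12), the fibril-associated Col20a1 (-0.01, 0.95) and the transmembrane Col23a1 (-0.11, 0.78) were not called, and the last pair changed sign when libraries were scaled to total reads.

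The 15 chains below the filter in untreated cells held between 0 and 23.0 normalized counts in any library. Col10a1, of hypertrophic cartilage, had 16.7, 9.97 and 18.7 normalized counts in Klf6-deleted libraries against 3.28, 0 and 0 in Lyz2cre libraries. With a filter of 10 reads, limma called Col10a1, Col6a5 and Col8a2 higher and Col19a1 lower, and an edgeR fit with that filter, added after the data were seen, called the same chains except Col6a5. Col19a1, a fibril-associated chain, had 7.50, 7.98 and 4.06 normalized counts in Klf6-deleted libraries and 17.5, 14.5 and 23.0 in Lyz2cre libraries (log2 -1.39 ± 0.43 SE, adjusted p = 0.013 with limma). It was the one chain lower in Klf6-deleted cells without TNF, at levels below 1 CPM or close to it. All 42 chains had at least 1 read in some untreated Klf6-deleted library, and 35 of 42 in some untreated Lyz2cre library. The untreated Klf6-deleted libraries had 18.9 to 23.4 M reads and 19880 to 20169 genes with reads each. The untreated Lyz2cre libraries had 17.3 to 19.0 M reads and 18332 to 18846 genes with reads each.

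**Figure D2:**
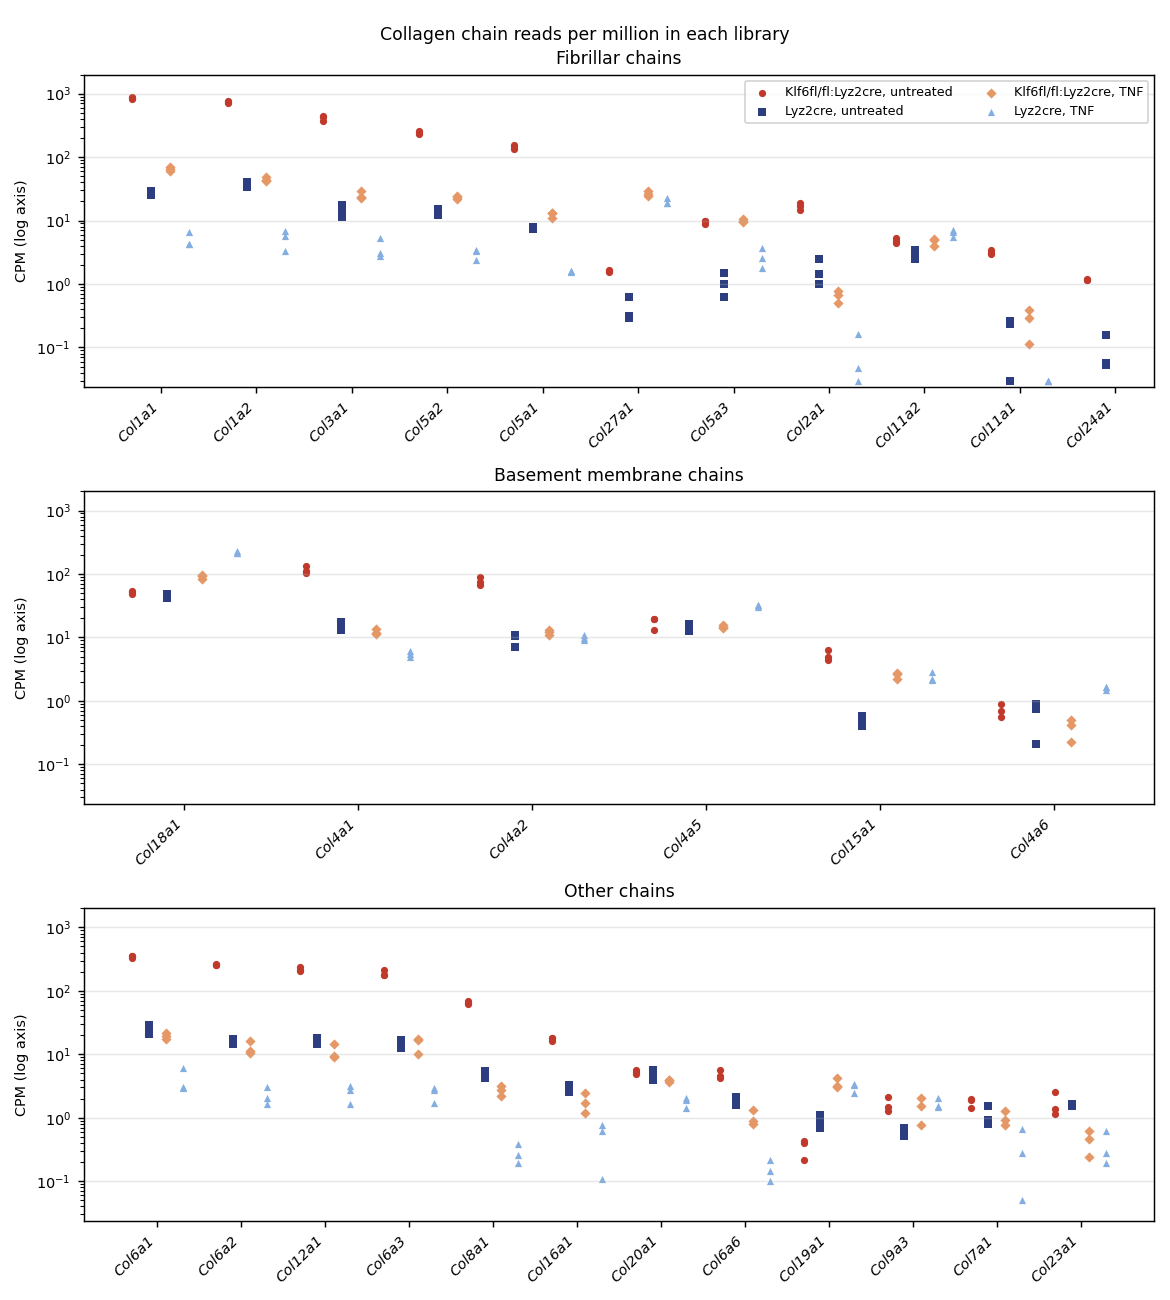
CPM (log axis) of each chain that passed the filter in either table; each point is 1 library, and chains are ordered by mean CPM within their class. Values below 0.03 CPM, zeros included, are drawn at 0.03, and Col24a1 has no row in the TNF table. Untreated Klf6fl/fl:Lyz2cre libraries stand above the other groups for most fibrillar chains, and Lyz2cre libraries with TNF stand highest for Col18a1 and Col4a5.

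With TNF, 23 chains passed the filter. Col8a1 and Col16a1 passed through the Klf6-deleted libraries alone and Col4a6 through the Lyz2cre libraries alone. Of the 23, 14 were higher and 4 lower in Klf6-deleted cells. Over the 11717 genes tested, 57.3% were called, 26.5% higher and 30.8% lower, so 46.2% of the called genes were higher, and 80.4% on scaling to total reads. The median log2 fold change was 1.61 for the chains and -0.01 for all genes tested. By class, 6 of 8 fibrillar chains were higher and 1 lower, 1 of 6 basement membrane chains was higher and 3 lower, and 7 of 9 other chains were higher and 2 not called. Every Klf6-deleted library lay above every Lyz2cre library for 14 of the 23 chains and below for 5, against 29.9% and 33.3% of all genes. A set of 13 chains was called higher in both tables, Col8a1 and Col16a1 among them. The share of all genes called higher in both was not computed, so this count has no background. The untreated and TNF tables share no libraries, but whether they share animals or cultures is not stated.

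Col1a1 with TNF had 1069, 990.5 and 1141 normalized counts in Klf6-deleted libraries and 136, 85.4 and 89.4 in Lyz2cre libraries. This was a 10.4-fold difference (log2 3.38 ± 0.14 SE, adjusted p = 4.6e-12), again the largest among the chains. Col1a2 had 679, 719 and 805 in Klf6-deleted libraries and 141, 115 and 68.8 in Lyz2cre libraries (6.99-fold), and Col3a1 had 372, 388 and 474 in Klf6-deleted libraries and 110.4, 62.8 and 57.3 in Lyz2cre libraries (5.50-fold). Col5a2 had 361, 379.8 and 398 normalized counts in Klf6-deleted libraries and 71.6, 67.9 and 50.4 in Lyz2cre libraries (5.97-fold), and Col5a1 had 216, 177 and 219 in Klf6-deleted libraries and 33.8, 31.9 and 32.1 in Lyz2cre libraries (6.07-fold). The fibrillar chains of types I, III and V thus kept their direction. Col5a3 was 3.05-fold higher in Klf6-deleted cells.

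Col27a1 and Col11a2 departed from the other fibrillar chains. Col27a1 had 436, 482 and 396 normalized counts in Klf6-deleted libraries with TNF and 473, 383 and 397 in Lyz2cre libraries, which overlapped (log2 0.07 ± 0.10 SE, adjusted p = 0.57). It was called higher only on scaling to total reads (log2 0.40, adjusted p = 0.0018), which moved the median of all genes by 0.33 with TNF. Col11a2 was lower in Klf6-deleted libraries, with 82.2, 85.4 and 66.1 normalized counts in these libraries and 149, 134 and 115 in Lyz2cre libraries (log2 -0.76 ± 0.17 SE, adjusted p = 0.0010). It was the one chain called in opposite directions in the 2 tables. Col2a1 and Col11a1 did not pass the filter with TNF, at 8.18 to 12.6 normalized counts of Col2a1 and 1.87 to 6.36 of Col11a1 in Klf6-deleted libraries, and 0 to 3.44 of Col2a1 and 0 of Col11a1 in Lyz2cre libraries.

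The basement membrane class held 3 of the 4 chains that were lower in Klf6-deleted cells with TNF. Col18a1 had 1544, 1394 and 1563 normalized counts in Klf6-deleted libraries and 4409, 4651 and 4443 in Lyz2cre libraries (log2 -1.59 ± 0.05 SE, adjusted p = 2.4e-13). The highest Klf6-deleted library lay far below the lowest Lyz2cre library. Col4a5 had 229.8, 255 and 243 in Klf6-deleted libraries and 621, 666 and 673 in Lyz2cre libraries (log2 -1.43 ± 0.08 SE, adjusted p = 4.1e-10). Its head-to-head neighbour Col4a6 had 3.74, 8.18 and 6.80 in Klf6-deleted libraries and 30.8, 34.0 and 34.4 in Lyz2cre libraries (log2 -2.29 ± 0.39 SE, adjusted p = 0.00011). Col4a5 and Col4a6 lie 1308 bases apart on chromosome X and were both low in Klf6-deleted cells, but Col4a6 passed the filter through the Lyz2cre libraries, where it is high.

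Col4a1 and Col4a2, close in effect without TNF, came apart with it. Col4a1 had 196, 224 and 187 normalized counts in Klf6-deleted libraries and 114, 124 and 101 in Lyz2cre libraries (1.79-fold, log2 0.84 ± 0.14 SE, adjusted p = 6.4e-05). Col4a2 had 212, 198 and 179 in Klf6-deleted libraries and 227, 187 and 205 in Lyz2cre libraries, which overlapped (log2 -0.07 ± 0.12 SE, adjusted p = 0.63). Col15a1 had 36.4, 43.6 and 44.7 in Klf6-deleted libraries and 45.7, 57.7 and 44.7 in Lyz2cre libraries (log2 -0.24 ± 0.23 SE, adjusted p = 0.38). Neither was called, and both turned positive on scaling to total reads (0.25 and 0.08).

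Among other types with TNF, Col6a1 had 283, 314 and 363 normalized counts in Klf6-deleted libraries and 128, 59.7 and 64.2 in Lyz2cre libraries (3.99-fold, log2 2.00 ± 0.22 SE, adjusted p = 9.0e-07). Col6a2 had 183, 174 and 267 in Klf6-deleted libraries and 62.7, 32.9 and 42.4 in Lyz2cre libraries (4.52-fold), and Col6a3 had 166, 273 and 288 in Klf6-deleted libraries and 60.7, 35.0 and 56.2 in Lyz2cre libraries (4.70-fold). The type VI chains again moved by a similar factor. Col12a1 had 149, 154 and 235 in Klf6-deleted libraries and 65.6, 54.6 and 34.4 in Lyz2cre libraries (3.47-fold), and Col8a1 had 36.4, 52.7 and 45.7 in Klf6-deleted libraries and 3.98, 5.15 and 8.03 in Lyz2cre libraries (6.98-fold). Col16a1 had 19.6, 28.2 and 40.8 in Klf6-deleted libraries and 12.9, 15.4 and 2.29 in Lyz2cre libraries (3.22-fold), without overlap but with a wide spread in both groups. Col20a1 had 65.4, 65.4 and 59.3 in Klf6-deleted libraries and 38.8, 41.2 and 29.8 in Lyz2cre libraries (1.73-fold), and it was called higher with TNF only. Col9a3 and Col19a1 were not called (log2 -0.61 and -0.12). The 11 chains with a row that did not pass the filter held at most 21.8 normalized counts in any library with TNF.

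**Figure D3:**
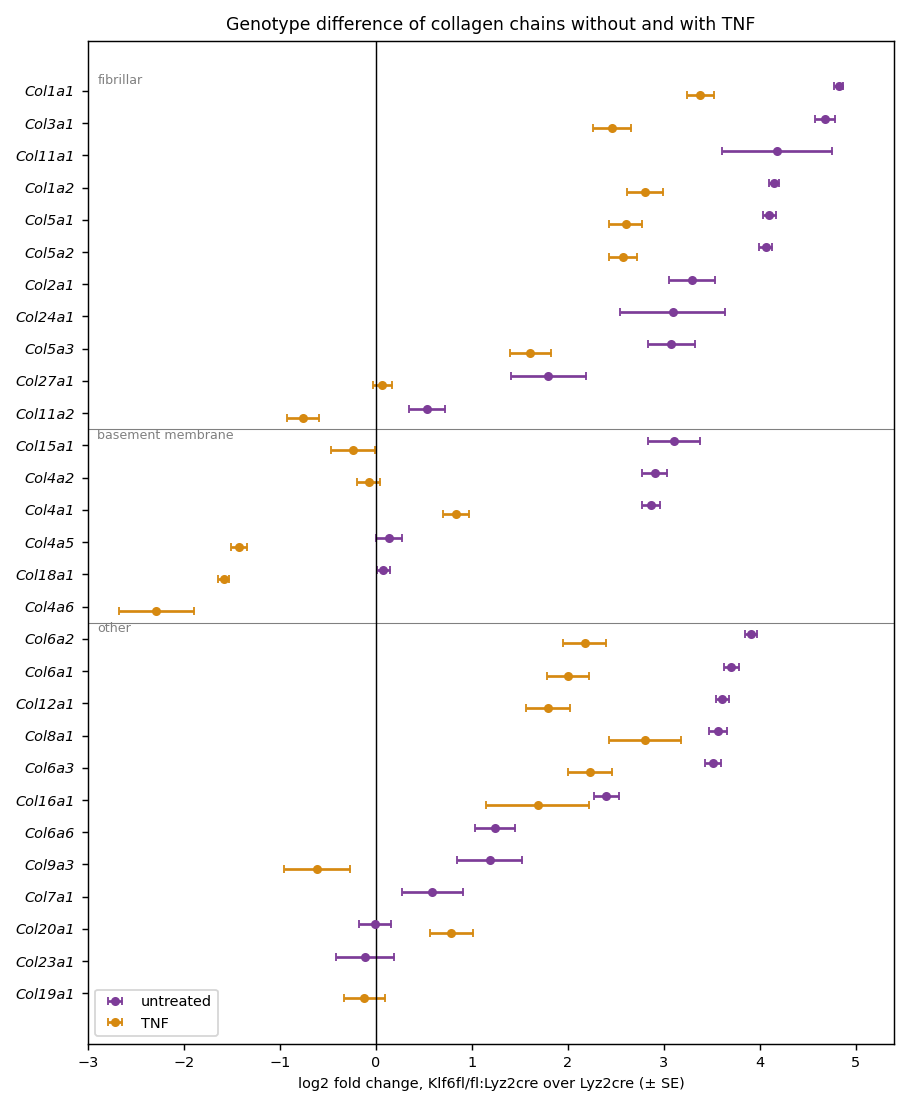
Log2 fold change of each tested chain, Klf6fl/fl:Lyz2cre over Lyz2cre (x axis; bars are the limma SE), untreated in purple and with TNF in orange, by class. Most chains lie right of 0 and further right without TNF, while Col18a1, Col4a5, Col4a6 and Col11a2 lie left of 0 with TNF.

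Whether the genotype difference itself changed with TNF was asked of all 12 libraries in 1 limma contrast, the TNF difference minus the untreated difference. Of 28 chains tested, 20 had a lower genotype difference with TNF and 2 a higher one, where 48.9% of the 13062 genes tested were called, 24.9% lower and 24.1% higher (49.2% of called genes higher, and 69.2% on scaling to total reads). All 6 basement membrane chains tested were lower: Col15a1 by -3.35 ± 0.34 (log2 ± SE), Col4a2 by -2.97 ± 0.20, Col4a6 by -2.52 ± 0.65, Col4a1 by -2.03 ± 0.17, Col18a1 by -1.66 ± 0.09 and Col4a5 by -1.56 ± 0.18. Col4a6 did not pass the filter untreated and with TNF reached 1 CPM in Lyz2cre libraries alone, so the filter favoured a negative value for it. Among fibrillar chains, Col3a1 had the largest such difference, at -2.22 ± 0.26, and Col1a1, Col1a2, Col5a1, Col5a2 and Col5a3 lay between -1.49 and -1.35. Col6a1, Col6a2 and Col6a3 lay between -1.73 and -1.28. Col19a1 (1.27 ± 0.43, adjusted p = 0.021) and Col20a1 (0.80 ± 0.27, adjusted p = 0.020) went the other way. Col8a1, at -0.76 ± 0.30, was the closest to the threshold (adjusted p = 0.042) and was not called by edgeR (adjusted p = 0.23).

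The response to TNF itself spans the tables, which the authors normalized separately, so it is given as a ratio of mean CPM with no test, over chains with at least 30 reads in each of the compared groups, or at least 150 in one and any in the other. In Klf6-deleted cells, 23 of 27 such chains were lower with TNF than without, with a median ratio of 0.105. In Lyz2cre cells, 14 of 23 were lower and 9 higher, with a median ratio of 0.368. The share of all genes lower with TNF was not computed, so these counts and medians have no background. The chains counted differ between the genotypes, so the medians are not over the same chains. Col1a1 averaged 64.9 CPM with TNF and 850 CPM without in Klf6-deleted cells, and 5.02 CPM with TNF and 27.5 CPM without in Lyz2cre cells. Col6a2 averaged 12.7 CPM with TNF and 258 CPM without in Klf6-deleted cells, and 2.23 CPM with TNF and 15.7 CPM without in Lyz2cre cells. The fibrillar chains of types I, III and V, except Col5a3, and the type VI chains Col6a1, Col6a2 and Col6a3 were lower with TNF in both genotypes.

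A smaller set was higher with TNF. Col27a1 averaged 26.6 CPM with TNF and 1.62 CPM without in Klf6-deleted cells, a ratio of 16.5, and 20.2 CPM with TNF and 0.413 CPM without in Lyz2cre cells, a ratio of 49.0 that rests on 23 reads in the untreated libraries. Col18a1 averaged 91.2 CPM with TNF and 51.0 CPM without in Klf6-deleted cells (ratio 1.79), and 218 CPM with TNF and 44.2 CPM without in Lyz2cre cells (ratio 4.94). Col19a1 averaged 3.49 CPM with TNF and 0.344 CPM without in Klf6-deleted cells, and 3.02 CPM with TNF and 0.883 CPM without in Lyz2cre cells. The untreated Klf6-deleted level of Col19a1 rests on 22 reads. Col5a3 had a ratio of 1.05 in Klf6-deleted cells, close to no change, and 2.58 in Lyz2cre cells. Col27a1, Col18a1, Col19a1 and, by a small margin, Col5a3 were thus higher with TNF in both genotypes. Col4a5 had a ratio of 0.838 in Klf6-deleted cells and 2.20 in Lyz2cre cells. Col4a2 had a ratio of 0.155 in Klf6-deleted cells and 1.06 in Lyz2cre cells, and its head-to-head neighbour Col4a1 of 0.105 in Klf6-deleted cells and 0.374 in Lyz2cre cells.

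**Figure D4:**
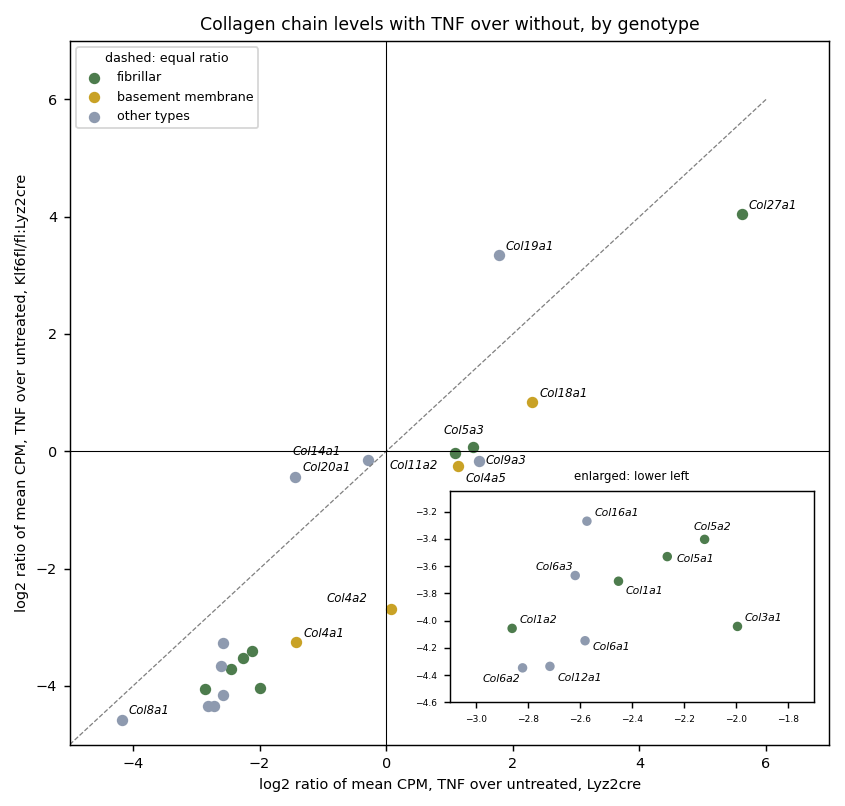
Log2 ratio of mean CPM with TNF over without, in Klf6fl/fl:Lyz2cre cells (y axis) and Lyz2cre cells (x axis), for chains with a ratio in both; the inset enlarges the lower left group. Most chains lie below the dashed line of equal ratio. Col27a1, Col19a1 and Col18a1 lie above 0 on both axes, as does Col5a3 by a small margin on the y axis.

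Chains that assemble together can be compared within a library, where the ratio of their reads between groups does not depend on gene length. Col1a1 to Col1a2, which assemble into type I collagen, had a read ratio of 1.14 ± 0.0256 in untreated Klf6-deleted libraries and 0.720 ± 0.0250 in untreated Lyz2cre libraries (SD, n = 3 each). With TNF the ratio was 1.46 ± 0.104 in Klf6-deleted libraries (1.38 to 1.57) and 1.00 ± 0.281 in Lyz2cre libraries (0.741 to 1.30), without overlap. Col1a1 was therefore the more abundant relative to its partner in Klf6-deleted libraries under both conditions. Col5a1 to Col5a2 was at 0.587 ± 0.0173 in Klf6-deleted and 0.571 ± 0.0372 in Lyz2cre libraries untreated, and with TNF at 0.538 ± 0.0668 in Klf6-deleted and 0.526 ± 0.0955 in Lyz2cre libraries, with overlapping ranges. Col4a1 to Col4a2 was 1.53 ± 0.0428 in Klf6-deleted and 1.59 ± 0.339 in Lyz2cre libraries untreated, which overlapped. With TNF it was 1.03 ± 0.104 in Klf6-deleted and 0.552 ± 0.0934 in Lyz2cre libraries, which did not overlap. Col1a1 to Col3a1 was 2.07 ± 0.187 in Klf6-deleted and 1.90 ± 0.322 in Lyz2cre libraries untreated, which overlapped. With TNF it was 2.61 ± 0.241 in Klf6-deleted and 1.38 ± 0.164 in Lyz2cre libraries, which did not. Among type VI chains, Col6a1 to Col6a2 was 1.34 ± 0.0228 in Klf6-deleted and 1.54 ± 0.0926 in Lyz2cre libraries untreated, without overlap, and 1.57 ± 0.224 in Klf6-deleted and 1.79 ± 0.268 in Lyz2cre libraries with TNF, with overlap. Col6a1 to Col6a3 overlapped between genotypes in both tables. These ratios are descriptions with no test.

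Levels of different chains were compared as RPKM, which scales reads to the total of the library and to the length of the gene, here the union of its annotated exons. Col1a1 was the highest chain in untreated Klf6-deleted cells, at 129 RPKM, followed by Col6a1 at 78.8 RPKM. Col18a1 was the highest in the other 3 groups, at 13.0 RPKM in Klf6-deleted cells with TNF, 31.1 RPKM in Lyz2cre cells with TNF and 6.29 RPKM in untreated Lyz2cre cells. The next in Lyz2cre cells with TNF was Col4a5 at 4.71 RPKM. The first place was the same by the length of the longest coding transcript, a choice added after the data were seen, but lower places moved, because the exon union of Col1a2 is 12426 bases and its longest coding transcript 5348. Overlap of collagen exons with other annotated genes was at most 6.07% of exon length, for Col9a3.

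Enzymes and chaperones that make and cross-link collagen were read from a list of 31 genes. In untreated cells 23 of the 28 tested were higher in Klf6-deleted cells and 2 lower, where 27.6% of all genes tested were higher and 29.3% lower. The Klf6-deleted libraries alone brought 4 of the 28 past the filter, so those 4 had to differ. P3h4 and Adamts14 reached 1 CPM in all Klf6-deleted but only some Lyz2cre libraries, which favoured the same direction. Lox, which cross-links collagen, averaged 8117 ± 721 normalized counts in Klf6-deleted libraries and 458 ± 26.8 in Lyz2cre libraries (SD, n = 3 each). Serpinh1, the collagen chaperone HSP47, averaged 3823 ± 227 in Klf6-deleted libraries and 364 ± 42.6 in Lyz2cre libraries. Loxl2, a relative of Lox, averaged 1346 ± 56.4 in Klf6-deleted libraries and 62.7 ± 17.1 in Lyz2cre libraries. Colgalt1 and Plod1, which modify collagen lysines, were the pair that fell (log2 -0.56 and -0.12). The general chaperones P4hb and Ppib, which many secreted proteins use, were not called (log2 0.01 each), and neither was Mia3 (log2 0.09). With TNF 16 of 23 were higher and 6 lower, where 26.5% of all genes tested were higher and 30.8% lower. The lower ones were Colgalt1, P3h1, P4ha1, Plod1, Plod3 and Ppib (log2 -0.38 to -0.14). Through the Klf6-deleted libraries alone, 4 of the 23 passed the filter, and Plod2 and Loxl1 reached 1 CPM in only 2 Lyz2cre libraries. Among the higher was Serpinh1, at 280 ± 24.6 normalized counts in Klf6-deleted and 50.2 ± 12.7 in Lyz2cre libraries. Lox with TNF averaged 685 ± 81.3 in Klf6-deleted and 517 ± 41.2 in Lyz2cre libraries. Of 11 collagen receptors, 7 of 8 tested were higher in untreated Klf6-deleted cells, against the same 27.6% of all genes, and Itgb1 was not called. Itga1 and Adgrg1 reached 1 CPM in all Klf6-deleted but only some Lyz2cre libraries, so for these the filter favoured that direction. Itga11, a collagen-binding integrin of mesenchymal cells that passed the filter through the Klf6-deleted libraries alone, averaged 405 ± 1.51 normalized counts in Klf6-deleted libraries and 10.2 ± 3.34 in Lyz2cre libraries. With TNF 4 of 7 receptors were higher, against 26.5% of all genes. Of these 4, Ddr1 and Ddr2 passed the filter through the Klf6-deleted libraries alone. Adgrg1 and Mrc2 reached 1 CPM in all Klf6-deleted libraries but only 1 Lyz2cre library. The filter thus favoured that direction for all 4. Itga1 and Itgb1 were lower (log2 -0.76 and -0.40).

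Markers of cells that commonly make collagen moved with the untreated difference. Of 18 stromal fibroblast markers that are not collagens, the 13 tested were all higher in untreated Klf6-deleted cells, where 27.6% of all genes were higher. Lepr reached 1 CPM in Klf6-deleted libraries alone, and Postn and Fbln1 in all Klf6-deleted but only some Lyz2cre libraries, so for these the filter favoured that direction. The summed level of the list was 1116 to 1142 CPM in Klf6-deleted libraries against 144 to 170 CPM in Lyz2cre libraries. Mfap4 had no reads or no row in any group, and Lum and Mfap5 had 30 reads or fewer over each group. With TNF the stromal sum was 233 to 249 CPM in Klf6-deleted libraries and 247 to 256 CPM in Lyz2cre libraries. Pdgfra and Cxcl12 passed the filter through the Klf6-deleted libraries alone, and Fbln2 reached 1 CPM in only 2 Lyz2cre libraries. Of 10 tested markers, 6 were higher and 2 lower, where 26.5% of all genes tested were higher and 30.8% lower. Dcn and Fbn1 were not called, and Kitl was lower (log2 -0.69). Pdpn, the lymphatic and stromal surface protein podoplanin, was also lower, at 2043 ± 53.9 normalized counts in Klf6-deleted and 4210 ± 221 in Lyz2cre libraries. It made up 51.4% of the sum in Klf6-deleted and 81.0% in Lyz2cre libraries. Without Pdpn the stromal sum with TNF was 106 to 123 CPM in Klf6-deleted and 43.5 to 56.5 CPM in Lyz2cre libraries, without overlap. The near equality of the whole sums thus rested on Pdpn.

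The 8 smooth muscle and pericyte markers summed to 349 to 384 CPM in Klf6-deleted and 23.9 to 26.4 CPM in Lyz2cre libraries untreated, and with TNF to 23.9 to 26.5 CPM in Klf6-deleted and 3.24 to 4.78 CPM in Lyz2cre libraries. Acta2, the actin of smooth muscle and myofibroblasts, made up 76.8% to 95.4% of this sum in the 4 groups. Myh11 and Des had no reads or no row in either genotype with TNF. The 10 osteoblast and chondrocyte markers summed to 52.8 to 63.8 CPM in Klf6-deleted and 4.97 to 7.76 CPM in Lyz2cre libraries untreated, and with TNF to 8.58 to 11.8 CPM in Klf6-deleted and 4.77 to 7.52 CPM in Lyz2cre libraries. Acan had no reads or no row in any group. Bglap, Ibsp, Dmp1 and Matn3 had 30 reads or fewer over each untreated group, and no reads or no row with TNF. Alpl made up 62.7% of the untreated sum in Klf6-deleted libraries. Without Alpl the untreated sum was 21.3 to 22.3 CPM in Klf6-deleted and 4.28 to 6.70 CPM in Lyz2cre libraries. With TNF, Runx2 made up 74.6% in Klf6-deleted and 84.6% in Lyz2cre libraries, and it was not called (log2 0.23). The 9 endothelial markers summed to 55.6 to 68.2 CPM in Klf6-deleted and 21.9 to 23.3 CPM in Lyz2cre libraries untreated. With TNF the sum was 33.6 to 34.0 CPM in Klf6-deleted and 84.1 to 107 CPM in Lyz2cre libraries, and Kdr, the VEGF receptor, made up 97.0% of it in Klf6-deleted and 98.3% in Lyz2cre libraries. Without Kdr the endothelial sum with TNF was 0.829 to 1.12 CPM in Klf6-deleted and 1.29 to 1.98 CPM in Lyz2cre libraries. Kdr and Cdh5 were the endothelial markers tested with TNF, both lower in Klf6-deleted cells, and Cdh5 passed the filter through the Lyz2cre libraries alone. Cldn5 and Robo4 had no reads or no row in either genotype with TNF. The 6 epithelial markers stayed below 1 CPM in sum. The 5 adipocyte markers summed to 0.128 to 16.9 CPM in Klf6-deleted and 0.158 to 11.0 CPM in Lyz2cre libraries untreated, and had no reads or no row with TNF. The 10 macrophage markers summed to 7435 to 7891 CPM in Klf6-deleted and 12908 to 12983 CPM in Lyz2cre libraries untreated, and with TNF to 10304 to 10352 CPM in Klf6-deleted and 11052 to 11184 CPM in Lyz2cre libraries. The order with TNF rested on Csf1r, without which the sum was 5383 to 5524 CPM in Klf6-deleted and 5180.2 to 5259 CPM in Lyz2cre libraries. Untreated, the sum without Csf1r was 5217 to 5425 CPM in Klf6-deleted and 8019 to 8110 CPM in Lyz2cre libraries. Of the 10 markers, 9 were lower and 1 higher untreated, where 29.3% of all genes tested were lower and 27.6% higher. Fcgr1 was higher (log2 0.21), and Cd68 and Cd14 were lower by little (-0.13 and -0.11). With TNF 6 were lower and 4 higher, where 30.8% of all genes tested were lower and 26.5% higher. The part of these cell types in the collagen differences was not tested.

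**Figure D5:**
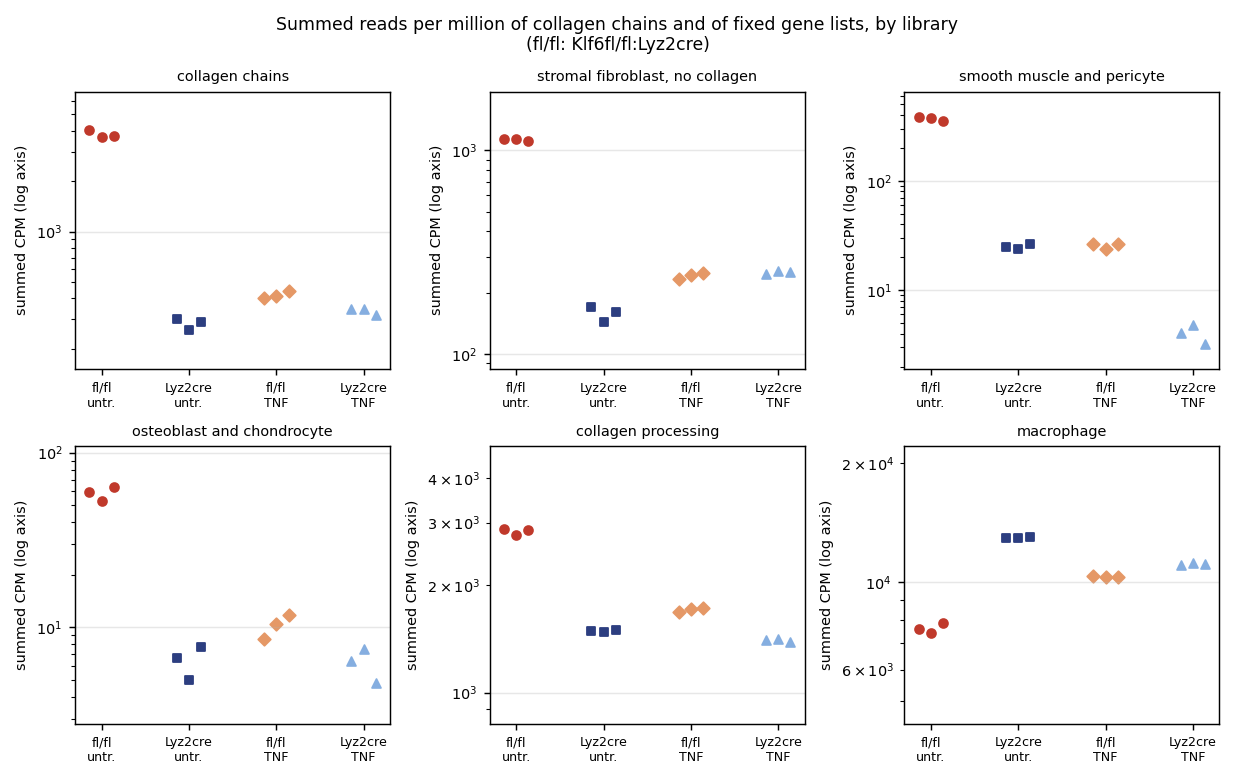
Summed CPM (log axis) of the collagen chains and of 5 gene lists in each library, with Klf6fl/fl:Lyz2cre (fl/fl) left of Lyz2cre in each condition; each point is 1 library. Stromal fibroblast markers sum to 1116 to 1142 CPM in untreated Klf6fl/fl:Lyz2cre libraries and to 144 to 170 CPM in untreated Lyz2cre libraries, and untreated macrophage markers take the opposite order.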

How the data were processed

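The authors deposited 1 table for untreated and 1 for TNF-treated libraries, and per the file headers its rows are Ensembl identifiers. Per the labels' protocols, 150 ng of total RNA, depleted of ribosomal RNA with Ribo-Zero Gold, went into each stranded TruSeq library. The submitters' processing notes name Cufflinks, GRCm39 and mm10, without version or role. How reads were aligned and counted, and whether strand was used, is not given in the sources used here, so reads of a chain and of an overlapping antisense gene cannot be told apart.

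The deposited values are a normalized signal, in a unit read from the values: each was a whole read count divided by 1 size factor per library (largest deviation 5.2e-05 reads, tolerance 0.001). Recomputing median-of-ratios factors from each table alone gave the same steps, hence normalization was done table by table. All values (100.0%) came out whole, and libraries held 16.9 to 23.4 M recovered reads. This unit was one of those the design allowed for, and its test for normalized values was used. Symbols came from a gene name table that matched 22867 of 22896 untreated and 21411 of 21437 TNF identifiers, gene positions and lengths from GENCODE vM21, and promoters from RefSeq (GRCm38.p6).

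Within a table, limma 3.58.1 (R 4.3.3, mean-variance trend) compared the genotypes on log2(value + 1) for genes that reached 1 CPM in 3 or more libraries, with Benjamini-Hochberg adjustment over all of them and a call at 0.05. Fold changes are on that scale, which understates changes of low genes. The change of the genotype difference with TNF was a limma contrast over the 4 groups. edgeR 4.0.16 and DESeq2 1.42.0 on recovered reads, other filters, a pseudocount of 8, scaling to total reads, a replicate block and leaving out each library were alternatives. On simulated data, limma called 95.7% of 2-fold higher genes in the untreated comparison (11972 genes) and 90.4% with TNF (11104 genes). The simulation changed few genes, in both directions, whereas 56.9% of genes untreated and 57.3% with TNF were called in the real data. It therefore cannot show how the calls or the normalization behave when so many genes differ.

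The members and gene lists were chosen with earlier results of these data known. Library values are given for the 6 chains of highest mean CPM in each class, those called in opposite directions and those lower in Klf6-deleted cells. Col10a1 and Col20a1 were added after their values were seen. Libraries of a group differed beyond sampling noise (chi-square per degree of freedom 2.27 to 8.66), so none was counted as a repeat.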

Additional observations from a re-analysis of the deposited data

Results flagged for a closer look

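The genotype difference changed with TNF, by limma's test of the difference itself over the 4 groups, for 22 of the 28 chains tested, where 48.9% of the 13062 genes tested changed. Each value is the log2 genotype difference with TNF minus that without, and a negative value means that Klf6-deleted cells stood lower relative to Lyz2cre cells with TNF than without. Among basement membrane chains the values were -3.35 for Col15a1, -2.97 for Col4a2, -2.52 for Col4a6, -2.03 for Col4a1, -1.66 for Col18a1 and -1.56 for Col4a5. Col4a6 rests on few reads, at most 34.4 normalized counts in any library. It did not pass the filter untreated and with TNF reached 1 CPM in Lyz2cre libraries alone, so the filter favoured a negative value. Among fibrillar chains they were -2.22 for Col3a1, -1.73 for Col27a1, -1.49 for Col5a1, -1.48 for Col5a2, -1.47 for Col5a3, -1.44 for Col1a1, -1.35 for Col1a2 and -1.29 for Col11a2. Among other types they were -1.82 for Col12a1, -1.80 for Col9a3, -1.73 for Col6a2, -1.71 for Col6a1, -1.28 for Col6a3 and -0.76 for Col8a1, and 0.80 for Col20a1 and 1.27 for Col19a1. Scaling to total reads moved the median of all genes by 0.19 in this contrast. Col8a1, Col19a1 and Col20a1 are the least firm of these, since each lost its call under some alternatives (12, 4 and 1 of them), and Col19a1 stood at 23.0 normalized counts or fewer in every untreated library. In the same contrast, 10 of the 14 stromal markers tested were lower and 0 higher, where 24.9% of all genes tested were lower and 24.1% higher. The stromal sum with TNF was mostly Pdpn, and without Pdpn it was 106 to 123 CPM in Klf6-deleted and 43.5 to 56.5 CPM in Lyz2cre libraries. The part of these markers in the values was not tested.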

How the results depend on the processing

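The count of chains higher in untreated Klf6-deleted cells was 16 to 23 when 1 library was left out and that of lower chains 0 to 0. The count of lower chains was 1 (Col19a1) with a filter of 10 reads, with no filter, and with edgeR and a filter of 10 reads, the last added after the data were seen. With TNF, 12 to 14 chains were higher and 3 to 4 lower when 1 library was left out. For the change of the genotype difference, 19 to 20 were lower and 1 to 3 higher. Without replicates of a Klf6-deleted group, chains that passed the filter through that group alone were no longer tested.

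Without Col1a1, Col1a2 and Col3a1 the genotype difference in the collagen share was 0.160 percentage points untreated, against 0.353 with them, and -0.0038 with TNF, against 0.0083 with them, a reversal. Col18a1 was among the chains that remained, with 12826 reads over the Lyz2cre and 4795 over the Klf6-deleted libraries with TNF. Leaving out 1 library gave 0.343 to 0.359 untreated and 0.0070 to 0.0090 with TNF. Scaling to total reads reversed values that were not called: Col20a1 (0.12) and Col23a1 (0.017) untreated, and Col15a1 (0.082), Col19a1 (0.20) and Col4a2 (0.25) with TNF. Leaving out 1 library gave values of both signs for Col20a1 (-0.16 to 0.11) and Col23a1 (-0.44 to 0.11) untreated, Col27a1 with TNF (-0.0017 to 0.16) and the change for Col23a1 (-0.19 to 0.52, with -0.14 and -0.10 among them). With edgeR the change was 1.24 for Col11a1 and -0.054 for Col23a1, both reversed. The causes were not tested.

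Col8a1 lost its call for the change of the genotype difference under 12 alternatives, Col19a1 under 4 and Col20a1 under 1. Replicate numbers recur in all groups, but after removal of group means same-numbered libraries correlated at 0.152, -0.0378 and 0.158 untreated and -0.0209, -0.0123 and -0.0295 with TNF, so the numbers were not taken as pairs. The replicate block left 22 higher and 0 lower untreated, 14 and 4 with TNF, and 2 and 20 for the change. A limit of depth is that chains under 1 CPM, such as Col10a1 and Col4a3, rest on few reads.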
